A study of Mus musculus with 2 samples.

Results

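The cytosolic ribosome of the mouse was followed through the RNA of its protein genes, which were chosen by symbol: names beginning Rpl or Rps with a number, together with Rplp0, Rplp1, Rplp2 and Rpsa, having a protein_coding transcript and leaving out pseudogenes and the S6 kinases. Rpl3 and Rpl3l were also left out by this rule. It gave 84 genes of 55450 annotated genes in the tables. Of these, 45 encode core proteins of the large subunit and 31 encode core proteins of the small subunit, 7 are paralogues, and Rps19bp1 encodes a binding partner of Rps19 and no ribosomal protein. Fau, whose fusion protein releases a ribosomal protein, carries another symbol and was not a member.

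The RNA was total RNA from the gastrocnemius, a calf muscle, of male B6CASTF1/J mice, the F1 hybrids of C57BL/6 and CAST strains, at 14 days of age. There was 1 group with 2 replicate libraries, each from 300 ng of RNA, so no treatment was compared. The labels speak of 3 males and give 1 donor identifier for both libraries, so it is unclear whether the libraries came from different animals or pools, and no p-value speaks for more than these libraries. The p-values between the tables rest on the spread of the within-library difference, moderated over genes, and those between the libraries on counting error alone. Each library was quantified in 2 ways by the authors: a gene table built on alignments to the transcriptome, and a second quantification made directly from the reads and an index, summed here per gene. The comparisons are the gene table over the second quantification, and replicate 1 over replicate 2.

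A ribosome holds 1 copy of nearly every core protein, so the messages that encode them serve 1 common product. Their mRNAs are short, and most begin with a run of pyrimidines called a 5′ terminal oligopyrimidine tract (TOP), through which the mTOR pathway controls their translation. Mammalian genomes also carry very many processed pseudogenes of these genes, that is, intronless copies made by reverse transcription of the spliced mRNA. In young muscle, growth of the fibres needs many ribosomes, while the fibre RNA is dominated by contractile mRNAs.

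The libraries held 40825601 and 37329025 estimated counts in replicates 1 and 2, of which added ERCC RNAs took 0.731% and 0.881%. The 7 muscle markers, led by Acta1 (skeletal actin), summed to 107760 TPM in replicate 1 and 116449 TPM in replicate 2, as the label of the tissue requires, where TPM is a level per transcript length, scaled to a fixed sum in each library. Markers of other cells were also present: summed levels in replicates 1 and 2 were 2547 and 2060 TPM for 5 fibroblast genes, 977 and 1347 TPM for 4 erythroid genes, 138 and 119 TPM for 4 endothelial genes, 77.5 and 114 TPM for 4 Schwann cell genes, and 21.5 and 21.2 TPM for 4 macrophage genes. The 4 lymphocyte genes summed to 0.18 and 0.3 TPM, with none at 1 TPM. Ribosomal protein mRNA is made by all these cells, and in bulk RNA fewer cells of a type and less RNA per cell cannot be told apart.

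Core ribosomal protein genes were among the more abundant messages. In the gene table the 84 members held 2.01% of all TPM in replicate 1 and 2.08% in replicate 2, a mean of 2.04% ± 0.0505 (SD, n = 2). Of TPM in nuclear protein-coding genes alone they held 4.36% ± 0.0562 (SD, n = 2). The median core gene stood at 260 TPM (mean of both libraries), against 7.55 TPM for the median of the 11072 nuclear protein-coding genes with at least 1 TPM, and 69 of 76 core genes reached 100 TPM. The median was 253 TPM for the 31 small subunit genes and 271 TPM for the 45 large subunit genes. Mitochondrial ribosomal proteins, which are encoded in the nucleus and form a separate ribosome inside mitochondria, had a median of 24.2 TPM over 78 genes.

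In the gene table the highest member was Rplp1, an acidic protein of the stalk that recruits translation factors. It had 661 and 682 TPM in replicates 1 and 2. Rpl41, the smallest ribosomal protein, followed with 638 and 667 TPM. Both libraries gave these genes nearly the same level, and in the gene table each stood above all small subunit genes. In the second quantification, where Rpl41 was highest, the highest small subunit gene had a mean of 787 TPM.

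Of the small subunit, Rps29, a small zinc-binding protein, was highest in the gene table with 520 and 481 TPM in replicates 1 and 2. Rps14, a protein whose loss in humans marks a form of anaemia, had 453 and 462 TPM, and Rps25, used in initiation on some viral messages, had 430 and 439 TPM. Rps24, Rps27 and Rps28 lay between 383 TPM and 403 TPM in either library. On the large subunit, Rpl23a, which sits at the exit of the peptide tunnel, had 460 and 478 TPM, and Rpl32 had 382 and 403 TPM. The values of Rps24 overlapped those of Rps27.

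**Figure D1:**
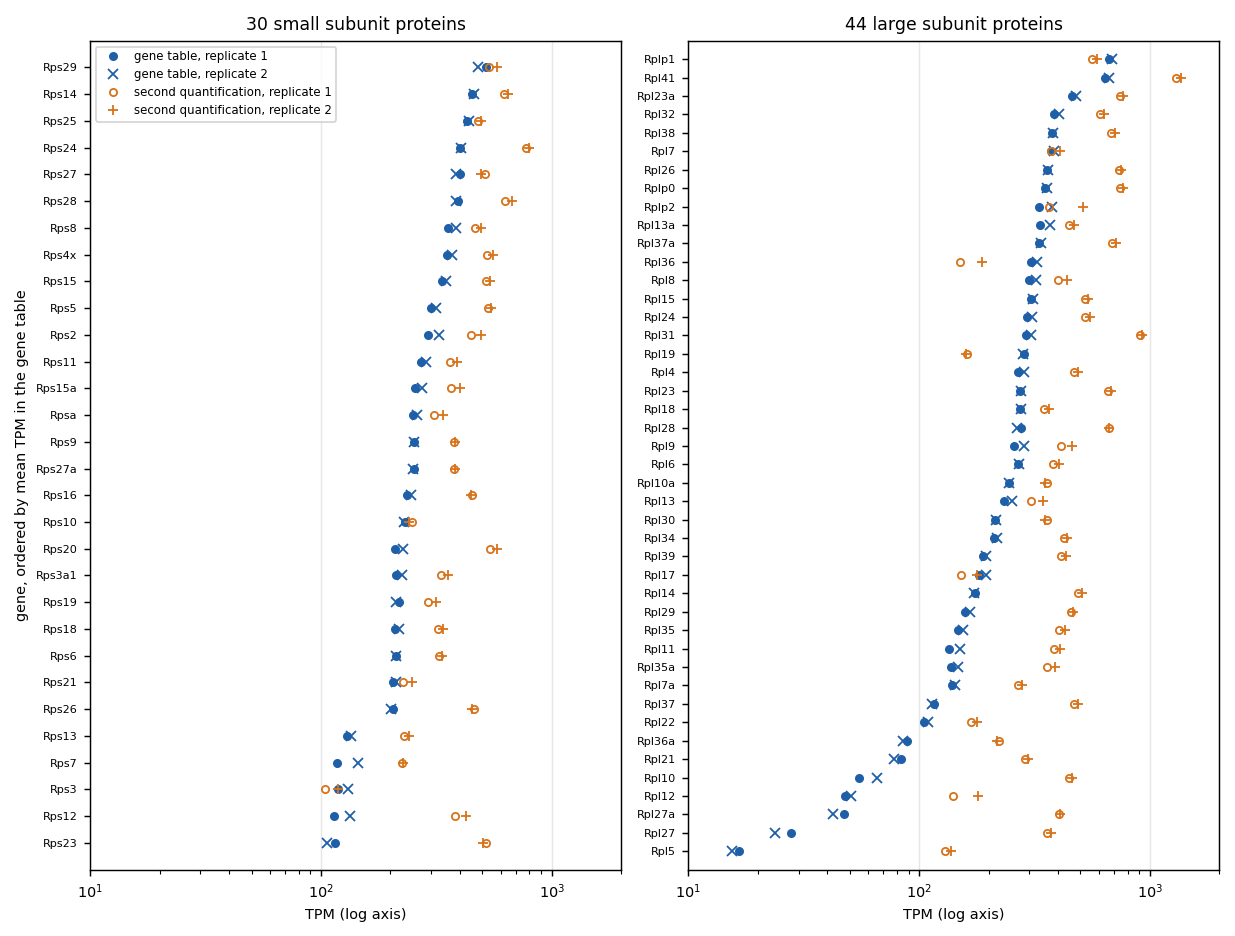
TPM on a log axis of each of 30 of the small subunit genes (left) and 44 of the large subunit genes (right), ordered by mean TPM in the gene table, with the gene table in blue and the second quantification in orange and 1 symbol per replicate. Below 100 TPM lie 7 core genes in the gene table, all of the large subunit, and none in the second quantification.

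The low end of the order in the gene table was occupied by large subunit genes. Rpl5, which binds 5S ribosomal RNA and, when free, the p53 regulator Mdm2, had 16.6 and 15.4 TPM in replicates 1 and 2. Rpl27 had 27.7 and 23.8 TPM. Rpl27a had 47.3 and 42.5 TPM. Rpl12, at the base of the stalk, had 47.5 and 50.8 TPM, and Rpl10, which joins the large subunit late in its assembly, had 55.0 and 65.4 TPM. These 5 genes thus stood far below the 260 TPM of the median core gene in both libraries.

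Over the 76 core genes the gene table spanned a 42.0-fold range between the highest and the lowest mean, with an SD of 0.97 on the log2(TPM + 1) scale. In the second quantification the span was 11.98-fold, the SD was 0.67 and the median core gene stood at 433 TPM. Its lowest core gene was Rps3, a small subunit protein near the mRNA entry that also acts in DNA repair, with 104 and 119 TPM. Its highest was Rpl41 with 1301 and 1368 TPM. The order of the core genes in the gene table and the second quantification had a Spearman's rho of 0.67 across genes, which share both libraries and are not independent replicates.

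The members' RNA could be set against their genomic copies by sequence. Searching all annotated transcripts for stretches of at least 100 bases with at least 95% identity to a member transcript over at least 50% of the copy gave 645 copies of 80 members, 635 of them annotated as pseudogenes. For 21 copies, the whole copy is contained without a difference in a transcript of the gene it matches. To show what the quantifiers had to tell apart, 60 coding bases of 2 genes are given with the same bases of a copy, differences in capitals, in mm10 coordinates. Rps23-ps1 (chr3:37714744-37714803, plus strand) is a contained copy of Rps23 (chr13:90923587-90923646, plus strand), a protein of the decoding centre. Rps2-ps13 (chrX:52898612-52898671, plus strand) differs from Rps2 (chr17:24720300-24720359, plus strand), a small subunit protein, at 2 of the 60 bases. The bases shown are the coding stretch within a single exon that had the most differences. Over 882 matched bases Rps2-ps13 is 99.2% identical to Rps2.
Rps23-ps1: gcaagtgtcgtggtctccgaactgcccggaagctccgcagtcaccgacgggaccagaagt
Rps23: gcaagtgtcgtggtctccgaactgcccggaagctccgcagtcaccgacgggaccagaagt
Rps2-ps13: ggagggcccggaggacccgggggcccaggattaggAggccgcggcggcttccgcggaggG
Rps2: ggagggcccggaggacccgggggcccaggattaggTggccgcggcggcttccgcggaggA

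For these pairs the quantifications gave different pictures. Rps23-ps1 had 308.5 and 308.7 TPM in replicates 1 and 2 of the gene table and was listed at 0 in both libraries of the second quantification. Rps23 itself had 116 and 106 TPM in the gene table, against 518 and 502 TPM in the second quantification. For Rps2-ps13, 226 and 251.2 TPM in the gene table stood beside 274 and 316 TPM in the second quantification. The copy with a few differences was thus given a level in both tables, and the identical one in the gene table only.

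Over the 21 contained copies, summed TPM was 1961 and 1977 in the gene table (replicates 1 and 2), against 121 and 175 in the second quantification. Of the 13 contained copies with at least 10 TPM in the gene table, 12 were under 1 TPM in the second quantification. The exception was Gm7536, a copy with a mean of 196 TPM in the gene table and 148 TPM in the second quantification. Over the 624 other copies the sums were 4780 and 4951 TPM in the gene table, against 4577 and 4743 TPM in the second quantification. Of 65 such copies with at least 10 TPM in the gene table, 34 also had at least 10 TPM in the second quantification and 29 were under 1 TPM. Whether any of this RNA came from the copies themselves was not tested.

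The low-lying genes all had abundant copies in the gene table. Rpl27, at 27.7 and 23.8 TPM, had copies that summed to 285 and 307 TPM. Gm11518 (chr11:94037218-94037628) and Rpl27-ps3 on chromosome 18 held the same value in each library, 142 and 153 TPM, and were listed at 0 in the second quantification. There Rpl27 itself had 359 and 373 TPM. With its copies it averaged 322 TPM in the gene table, against 366 TPM in the second quantification.

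Rpl5 had copies that summed to 222 and 236 TPM in the gene table, almost all in Gm15500 (chr7:114705217-114706235), which matches Rpl5 without a difference over 1018 of its 1019 bases. In the second quantification Gm15500 kept 255 and 274 TPM beside 130 and 138 TPM for Rpl5. Rpl12 had 311 and 320 TPM in copies in the gene table, and 339 and 323 TPM in copies in the second quantification, chiefly Gm10275. Rpl10 had 205 and 206 TPM in copies in the gene table, against 1.23 and 1.02 TPM in the second quantification, the main one being Rpl10-ps3, annotated as protein_coding. Copies therefore outweighed their gene in both tables for Rpl5 and Rpl12, and in the gene table alone for Rpl10 and Rpl27.

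In 15 members the copies held more TPM than the gene in the gene table. In 5 they did so in the second quantification: Rpl5, Rpl12, Rps7, Rpl17 and Rpl19. Rpl19 turned round, with copies at 11.8 and 15.1 TPM in the gene table and 289 and 281 TPM in the second quantification. Rpl17 turned round as well. In the gene table it had 183 and 195 TPM beside 57.0 and 63.9 TPM for its copy Rpl17-ps5, which had 166 and 162 TPM in the second quantification. Among pseudogenes named -ps alone, the highest level relative to the gene in the gene table was found for Rpl27 at 5.75 times the gene, Rpl10 at 3.40 times, Rps23 at 2.79 times, Rps12 at 1.77 times and Rpl36a at 1.60 times. Adding the copies to their genes left a 6.73-fold range over the 76 core genes in the gene table, against 42.0-fold without them, and an SD of 0.48 against 0.97 on the log2(TPM + 1) scale. In the second quantification the range was 11.6-fold with the copies and 11.98-fold without them.

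**Figure D2:**
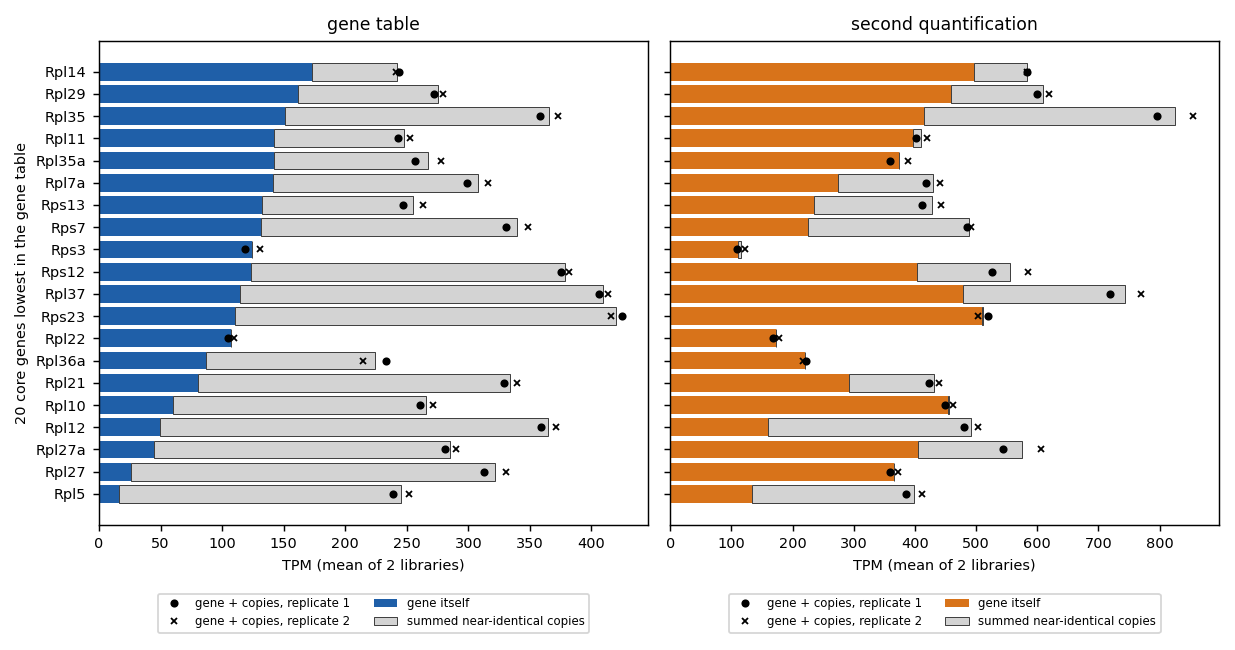
Mean TPM (2 libraries) of the 20 core genes that were lowest in the gene table, as coloured bars, with the summed TPM of their near-identical copies stacked in grey, in the gene table (left) and in the second quantification (right), whose axes differ. Points give gene plus copies in each replicate. In the gene table the copies of Rpl5 and Rpl27 exceed the gene many times, and in the second quantification the bar of Rpl27 is almost all its own.

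Members were next tested between the gene table and the second quantification, within each library, with limma on log2(TPM + 1) and Benjamini-Hochberg adjustment over the 12625 genes that averaged 1 TPM or more. Of 84 members, 82 passed this filter. Rpl10l, a paralogue known from the testis, was at 0 in every column, and Rpl39l, another testis paralogue, had 4 counts in replicate 1 and 0 in replicate 2 of the gene table. In all, 71 members were lower in the gene table and 5 were higher. The background was 86.2% of all genes called, 81.9% lower and 4.36% higher, so the members' shares of 86.6% lower and 6.10% higher lay near it. This nearness depends on the library block: without it 69 members were lower (84.1%) and 3 higher (3.66%), beside a background of 48.7% lower and 3.57% higher. The 6 members that did not pass were Rps29, Rpl7, Rplp2, Rps10, Rpl17 and Rpl7l1.

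Differences also have a size. The members' median log2 difference, gene table over second quantification, was -0.73, against -0.37 over all genes tested. Over 2-fold lower in the gene table were 28 of 82 members, or 34.1%, beside a background of 4.60%. They comprised 22 large subunit genes, 4 small subunit genes, Rpl22l1 and Rps19bp1. Over 2-fold higher was Rps27rt alone, or 1.22% of members, beside a background of 3.03%. With the members' copies added, 8 of 82 members remained over 2-fold lower: Rpl14, Rpl23, Rpl27a, Rpl29, Rpl35, Rpl39, Rps20 and Rps19bp1. The background was then 4.44%, but no copies were added to other genes. Of the 28 members, 21 had at least 50 TPM in copies in the gene table, as had 19 of the other 54. The difference and the copy level both draw on the gene table and so are not independent, and the cause was not tested.

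Rpl27 had the largest difference, -3.78 ± 0.09 (SE, limma adjusted p = 0.00672), which was -0.18 with its copies added. Rpl27a followed, with 404 and 407 TPM in the second quantification beside the gene table values given above, a difference of -3.15 ± 0.06 (SE, limma adjusted p = 0.00571) that was -1.01 with copies. Rpl5 differed by -2.99, Rpl10 by -2.90 and Rps23 by -2.19, and with copies these were -0.70, -0.78 and -0.28. Rpl37, a zinc-binding protein, with 116 and 113 TPM in the gene table and 468 and 489 TPM in the second quantification, differed by -2.05, and by -0.86 with copies. Rpl21, Rps12, Rpl12 and Rpl31 differed by -1.85, -1.70, -1.67 and -1.62. All 10 were past the limma test, and both libraries lay on the same side in each.

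In the other direction, Rps27rt had 5.32 and 11.3 TPM in the gene table and was listed at 0 in both libraries of the second quantification. Rpl36, a large subunit protein with a very short mRNA, had 307 and 326 TPM in the gene table, against 150 and 187 TPM in the second quantification, a difference of 0.91 ± 0.08 (SE, limma adjusted p = 0.0089). Its copy Rpl36-ps12 went the other way, with 46.4 and 45.6 TPM in the gene table, against 97.9 and 101 TPM in the second quantification. Rpl19 had 284 and 281 TPM, against 161 and 160 TPM, a difference of 0.81 that became -0.59 with its copies. Rplp1 (0.22) and Rps3 (0.16) also passed the limma test, at adjusted p = 0.0147 and 0.0307, though neither did with copies added or without the library block. Rpl17 (0.19), Rpl7l1 (0.13), Rpl7 (-0.05), Rps10 (-0.09) and Rps29 (-0.15) completed the 10 highest without passing it. Rpl17 was -0.42 with copies.

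TPM divides an estimated count by an effective length, the number of positions at which a read's fragment can start. Members are short: their median length in the gene table was 595 bases, against 2240 bases over the genes with at least 1 TPM. The median effective length of members was 492 bases in the gene table and 342 bases in the second quantification, against 2141 and 1888 bases for those genes. On the log2 scale the effective length in the second quantification over that in the gene table had a median of -0.63 for members and -0.21 for all genes with at least 1 TPM, and it was shorter in 73 of the 82 members with a value in both. Counts differed less in the median, with a log2 ratio of -0.08 for members, gene table over second quantification. In 56 of 82 members they were within 1.3-fold of each other, a share that was not computed over all genes. Over 2-fold more counts were given to 6 members in the gene table, and over 2-fold fewer to 7. As many members were called over 2-fold higher and lower with edgeR on counts, beside a background of 3.22% higher and 5.47% lower.

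On counts with edgeR and the library as a block, 60 members passed, 32 higher and 28 lower in the gene table, and the median was 0.01. These are 39.0% and 34.1% of members, beside a background of 10.5% higher and 8.81% lower. When TPM was recomputed within nuclear protein-coding genes, which moved the median of all genes up by 0.51, 19 members were higher and 37 lower, and the median of members was -0.12 against 0.15 for all genes. The members' shares were 23.2% higher and 45.1% lower, beside a background of 32.7% higher and 9.39% lower. The direction of the members as a group in the gene table thus depends on the scale. Relative to the median of all genes they were lower by 0.37 in TPM as deposited, and this size depends on the setting too. With copies added to members the medians were -0.52 for members and -0.37 for all genes. On counts with edgeR they were 0.01 and -0.006.

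**Figure D3:**
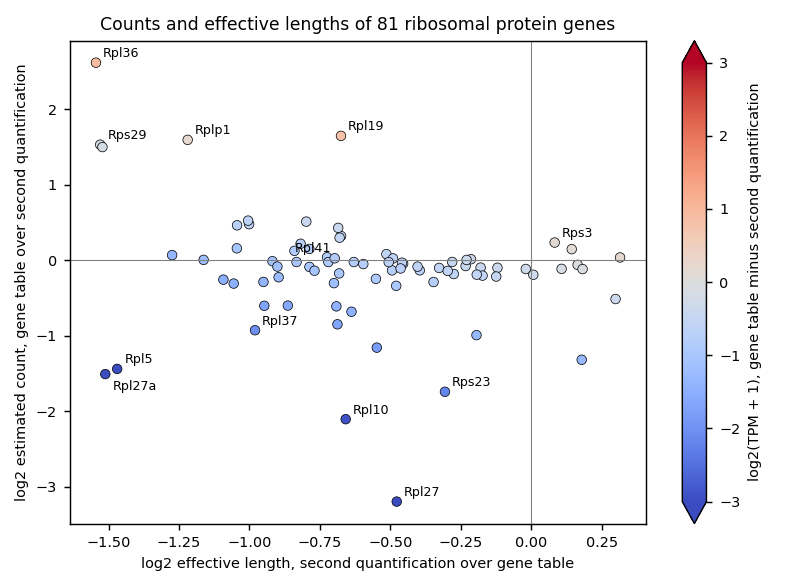
Each point is 1 of 81 members (Rps27rt, at 0 in the second quantification, is left out), with the log2 effective length in the second quantification over the gene table on the horizontal axis and the log2 estimated count in the gene table over the second quantification on the vertical axis, both averaged over 2 libraries; colour gives the difference of log2(TPM + 1). Most points lie near 0 on the vertical axis and left of 0 on the horizontal one, with Rpl27, Rpl10 and Rps23 low in counts and Rpl36 high in counts.

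The leading transcript often differed between the tables. The members have 495 annotated transcripts, a median of 6 each. The transcript with the largest share was the same in both quantifications for 33 of 76 core genes. Of the 43 that differed, the second quantification chose the longer transcript in 33 and the shorter in 10. The same counts over other genes are not given here, so neither is shown to be particular to members. Rpl41 is an extreme case, in which transcript Rpl41-203 (437 bases) held 96.6% and 96.4% of its TPM in the gene table's transcript values and 0% in the second quantification, which gave 73.4% and 74.2% to Rpl41-204 (509 bases).

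Rps24 is known for alternative use of a tiny exon near the end of its coding sequence. Rps24-205 held 33.6% and 37.3% in the alignment-based table, against 38.7% and 40.9% in the second quantification. Rps24-202 held 27.6% and 25.9%, against 5.95% and 5.40%, while Rps24-207, the longest of them at 714 bases, held 0.529% and 0.576%, against 40.5% and 39.0%. The share of Rps24-205 was alike in both tables, and those of the others were not. In each case the libraries lay within 4 percentage points of each other within a table.

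Transcripts that GENCODE does not class as protein_coding held 17.7% and 17.4% of member TPM in the alignment-based table, against 31.9% and 31.6% in the second quantification. For all other nuclear protein-coding genes the shares were 12.8% and 12.2%, against 13.02% and 12.4%. Of member TPM, retained_intron transcripts took 7.70% ± 0.0816 in the alignment-based table and 16.8% ± 0.18 in the second quantification (SD, n = 2). The processed_transcript class took 5.30% ± 0.00324, against 11.5% ± 0.0327. In 9 core genes a transcript of such a class led in both tables. In Rps16 the retained_intron transcript Rps16-203 held a mean of 68.3% in the alignment-based table and 83.9% in the second quantification. In Rpl35 and Rpl23, processed_transcript entries Rpl35-203 (96.5% and 81.5%) and Rpl23-204 (80.2% and 86.8%) led. In Rps18, Rps18-210, a retained_intron entry of 499 bases, held 84.9% in the alignment-based table and was at 0 in the second quantification. These classes describe annotated models, which share most of their bases with the coding transcripts of the same gene.

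**Figure D4:**
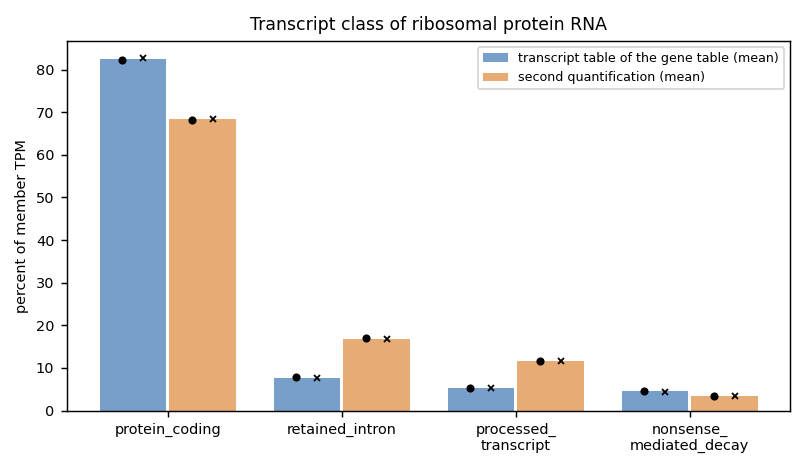
Percent of the members' TPM by annotated transcript class, in the transcript table of the gene table (blue) and in the second quantification (orange); bars are means of 2 libraries, circles are replicate 1 and crosses replicate 2. The protein_coding class holds 82.5% and 68.3%, and the retained_intron class 7.70% and 16.8%.

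Paralogues were set against the core genes they resemble, per length. Rpl36al, an autosomal relative of the X-linked Rpl36a, had 147 and 165 TPM in replicates 1 and 2 of the gene table, beside 88.2 and 85.1 TPM for Rpl36a, a mean ratio of 1.80 ± 0.201 (SD, n = 2). In the second quantification they had 200 and 229 TPM beside 223 and 217 TPM, a ratio of 0.977 ± 0.11 (SD, n = 2), so which of the pair is higher was not settled. Copies of Rpl36a, chiefly Rpl36a-ps2, held 145 and 130 TPM in the gene table and were listed at 0 in the second quantification. The coding sequences of the pair are 87.7% identical over 318 bases. The stretch below, of 60 bases, was again chosen for the most differences and holds 12 of their 39 (capitals). It lies at chr12:69182963-69183022, minus strand, in Rpl36al and at chrX:134586516-134586575, plus strand, in Rpl36a.
Rpl36al: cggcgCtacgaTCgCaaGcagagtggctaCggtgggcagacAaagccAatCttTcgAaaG
Rpl36a: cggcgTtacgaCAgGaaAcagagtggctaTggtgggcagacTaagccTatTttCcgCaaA

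Rpl22l1, the paralogue of the RNA-binding protein Rpl22, had 73.8 and 86.8 TPM beside 105 and 109 TPM for Rpl22 in the gene table, a ratio of 0.748 ± 0.0643 (SD, n = 2), and the ratio was 0.936 ± 0.0831 in the second quantification, where it reached 0.995 in replicate 2. Rps27l, known as a p53 target, had 81.01 and 96.3 TPM beside 401 and 383 TPM for Rps27, a ratio of 0.227 ± 0.0349 (SD, n = 2), and 0.299 ± 0.0416 in the second quantification. Rpl7l1 had 24.5 and 26.2 TPM beside 372 and 382 TPM for Rpl7. Rps27rt, an intronless gene whose coding sequence is identical to that of Rps27 over all 252 bases, cannot be told apart from Rps27 by coding reads. Rpl22l1 and Rps27l, each under 77% identical to their core gene over aligned coding bases (73.3% and 76.2%), were below it in both tables.

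Between the libraries, members were slightly lower in replicate 1. Counts were set against the libraries' TMM-scaled sizes gene by gene in an exact binomial test (two-sided, Benjamini-Hochberg adjustment over 17240 genes), which called 53 of 82 members lower in replicate 1 and 0 higher, that is 64.6%, beside a background of 10.9% lower and 10.6% higher. The second quantification called 67 members lower and 0 higher, beside 11.0% and 10.4%, and 50 members were called in both. The differences were small: the median log2 count ratio of replicate 1 over replicate 2 was -0.11 for members and 0.01 for all genes. The core genes ranged between -0.30 and 0.17. In 12 of the 53 called members the quantifier's own intervals of TPM did not overlap between the libraries. For this count and for the 50 called in both, no share over all genes was computed. Scaling to the ERCC RNAs moved the median of all genes by 0.29 and turned the direction: 73 members were then higher (89.0%) and 1 was lower (1.22%) in replicate 1, beside a background of 50.8% higher and 1.72% lower. Relative to the median of all genes, members were lower by 0.12 in replicate 1 under each of the 4 scalings, since a scaling shifts all genes alike.

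The largest called difference in the gene table was that of Rps27rt, with 46.9 and 92.7 counts in replicates 1 and 2. It was listed at 0 in the second quantification, and coding reads cannot tell it apart from Rps27. Rpl22l1 had 891 and 1005 counts, a log2 ratio of -0.33 (exact binomial adjusted p = 1.38e-05). Rps27l had 1053 and 1175 counts (-0.31) and Rpl7l1 had 1078 and 1191 counts (-0.30). Rps7, a small subunit protein, had 2365 and 2615 counts, a log2 ratio of -0.30 (exact binomial adjusted p = 1.2e-11), yet in the second quantification its ratio was -0.08 and did not pass (adjusted p = 0.12, exact binomial). Paralogues thus supplied 4 of the 5 largest differences in the gene table, Rps27rt among them.

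Other genes of the translation machinery lay on both sides under the same TMM scaling, beside the background of 10.9% lower and 10.6% higher. Of 78 mitochondrial ribosomal proteins, 13 were called lower in replicate 1 and 0 higher, with a median of -0.09. Of 26 ribosome biogenesis genes, 12 were lower, among them Nop58 (box C/D snoRNP, -0.43) and Polr1b (RNA polymerase I, -0.35), and 1 was higher (Npm1, 0.11), with a median of -0.20. Of 16 other TOP mRNAs, 5 were lower (Tpt1, Eef1g, Rack1, Eef1d and Eif3f) and 4 were higher (Eef1a1, Vim, Naca and Hnrnpa1). Of 18 genes of mTOR and TOP control, 3 were lower, Larp1 at -0.24, Eif4e at -0.14 and Larp4 at -0.12. Higher were 4: Ddit4, an mTOR inhibitor induced by stress and glucocorticoids, at 1.16 with 31.9 and 13.7 TPM in replicates 1 and 2, Sesn1 at 0.73, the translation repressor Eif4ebp1 at 0.49 and Mlst8 at 0.28. Fau, at -0.03, did not pass.

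Cell markers moved between the libraries as well, again with TMM scaling and beside the same background of 10.9% lower and 10.6% higher. All 7 muscle genes were called lower in replicate 1, with a median of -0.16, as were 3 of 4 erythroid and 2 of 4 Schwann cell genes, while 3 of 4 endothelial and 4 of 5 fibroblast genes were called higher and 1 fibroblast gene, Col3a1, lower. Their part in the difference of the ribosomal protein genes was not tested.

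**Figure D5:**
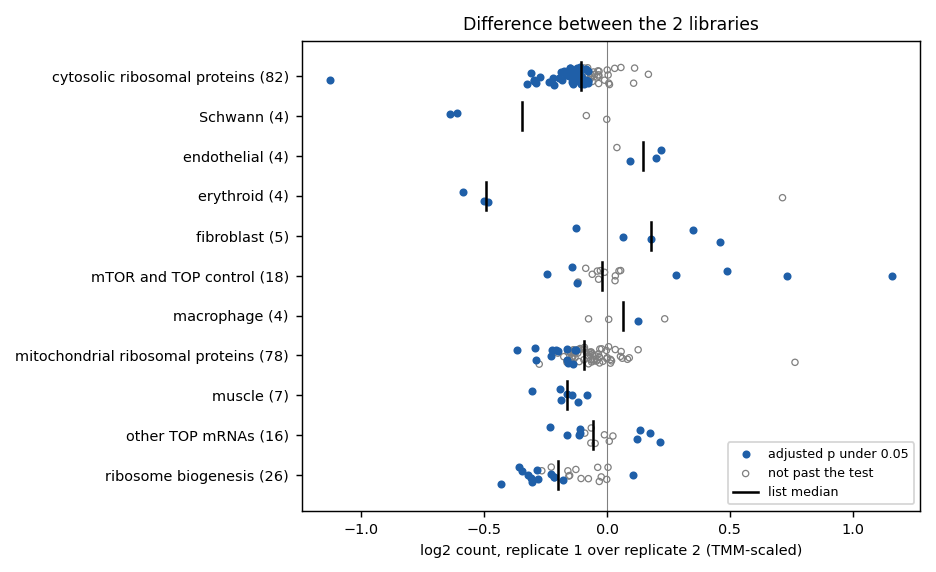
Log2 count of replicate 1 over replicate 2 after TMM scaling, 1 point per gene with at least 10 counts, by gene list; filled points passed the exact binomial test, the black bar is the list's median and numbers give genes tested. Called cytosolic ribosomal protein genes all lie left of 0 (with ERCC scaling most lie right of 0), and genes of mTOR and TOP control lie on both sides.

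The rule used no sequence, so the members' promoters and starts were described separately. Promoters from RefSeq (GRCm38.p6, 250 bases before and 50 after the start) were found for 65 of 84 members, 76 promoters in all. A C at the annotated start followed by at least 4 bases that are C or T, the TOP pattern, was present in 18.4% of member promoters, against 2.51% of all 32851 promoters. Within 5 bases of the start on either side it was present in 42.1%, against 18.3%, this window having been chosen after the data were seen. None of 69 matched mitochondrial ribosomal protein genes had it at the start. Counted per gene, 30 of 65 members (46.2%) had it within 5 bases of the start, as had 17 of the 69 mitochondrial ribosomal protein genes (24.6%) and 21.2% of all genes. CCGGAAG, searched on both strands, was present in 35.5% of member promoters, against 8.86% of all. Per gene it was present in 26 of 65 members, or 40%, in 26 of 69 mitochondrial ribosomal protein genes, or 37.7%, and in 9.93% of all genes, so the cytosolic and mitochondrial sets had similar shares. For TATAAA on both strands the shares were 9.21% and 13.6%, and for CACGTG, which reads the same on both strands, 10.5% and 7.15%.

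The 14 members with the pattern at the start had a median of 222 TPM in the gene table and the other 51 matched members 214 TPM. To show the element, 30 bases around the start are given for the 6 of the 14 with the highest TPM, the pyrimidine run at the start in capitals. They are Rps27 (chr3:90213629-90213658, minus strand), Rpl38 (chr11:114668570-114668599, plus strand), known for its role in translation of Hox mRNAs, the stalk protein Rplp2 (chr7:141447641-141447670, plus strand), Rpl15 (chr14:18270967-18270996, minus strand), Rpl28 (chr7:4792955-4792984, plus strand) and Rps15a (chr7:118116128-118116157, minus strand).
Rps27: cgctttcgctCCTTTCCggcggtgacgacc
Rpl38: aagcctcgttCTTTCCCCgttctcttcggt
Rplp2: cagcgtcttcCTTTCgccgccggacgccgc
Rpl15: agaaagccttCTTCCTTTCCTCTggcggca
Rpl28: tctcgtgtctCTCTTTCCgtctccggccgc
Rps15a: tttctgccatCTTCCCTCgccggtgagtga

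The runs were between 5 bases in Rplp2 and 13 bases in Rpl15. A match describes letters in this window and not a site in use. The 76 core genes lie on 19 chromosomes and so not all in 1 place, with 14 genes on chromosome 7 and 4 on the X. The same counts over all genes were not made, and clustering within a chromosome was not examined.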

How the data were processed

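Total RNA-seq of 2 libraries of mouse gastrocnemius was used as deposited. The build was mm10 with GENCODE M21, per the labels and the annotation version of the identifiers; which aligner and quantifiers were run is not given in the sources used here. Per the file headers, the authors' gene table and its transcript table hold expected counts and TPM, and the deposited second transcript table holds estimated counts and TPM. Other deposited columns used were the interval bounds of TPM. Expected counts were rounded for count models.

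Members and lists were chosen with earlier results of these data known. The gene table was compared with the second quantification within each library by limma 3.58.1 (intercept, n = 2) on log2(TPM + 1), for genes averaging 1 TPM or more. Both quantifications share reads, so libraries pair by construction. Each gene's own spread, from 2 values, is moderated by a prior taken over all genes (prior SD 0.0498, prior degrees of freedom 1.40). The p-values rest on this moderated spread. Libraries were compared by an exact binomial test on genes with at least 10 counts. Calls used an adjusted p of 0.05. Other fits used edgeR 4.0.16 and DESeq2 1.42.0. Copies were found with BLAST 2.17.0, same sense, outside the gene's own locus. Scripts were tested on simulated data. A floor of 3 counts is 0.0735 and 0.0804 CPM in replicates 1 and 2; such floors, like the binomial test, reflect counting error alone. Genes named are the 12 highest and 8 lowest members, the 10 largest table differences in each direction, the 5 largest library differences, the paralogues, and isoform and pseudogene cases picked by share. A few of these, and 1 other way of summing the share of TPM, are not reported here.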

Additional observations from a re-analysis of the deposited data

How the results depend on the processing

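Between the tables, 76 members were called. DESeq2 on counts with the replicate block called 32 (39.0%, beside 4.65% of all genes), and edgeR called 73.2%, beside 19.3%. Leaving out the replicate block gave 72 (69 lower and 3 higher). Over all genes 86.2% were called with the block and 52.3% without it. With no filter on low values 84.3% of members were lower, beside 36.8% of all genes. Members lower in the gene table numbered 71, against 37 with TPM within nuclear protein-coding genes, 28 with edgeR on counts and 16 with DESeq2. The backgrounds were 81.9%, 9.39%, 8.81% and 2.23% lower. Members higher numbered 5, against 19 with TPM within nuclear protein-coding genes, 10 when centred on the median of all genes, 32 with edgeR, 16 with DESeq2 and 2 with copies added. The backgrounds were 4.36%, 32.7%, 8.90%, 10.5%, 2.42% and 4.33% higher. Over 2-fold lower were 28, against 10 within protein-coding genes, 15 when centred, 7 with edgeR, 7 with DESeq2, 19 with -ps pseudogenes added and 8 with copies added. The backgrounds were 4.60%, 2.08%, 1.93%, 5.47%, 2.05%, 4.53% and 4.44%. Over 2-fold higher was 1, against 0 at a minimum of 5 TPM, 3 within protein-coding genes, 3 when centred and 6 with edgeR or DESeq2. The backgrounds were 3.03%, 3.01%, 3.80%, 3.19%, and 3.22% or 1.79%. Pseudogenes and copies were added to members only, and not to the other genes of the background. The cause was not tested.

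The median difference between the tables was -0.73, and it was -0.12 within protein-coding genes, -0.37 when centred, -0.63 with -ps pseudogenes, -0.52 with copies, -0.10 as CPM and between -0.71 and -0.70 with either library left out, where 1 library gives no test. Rpl17 (-0.42) and Rpl19 (-0.59) reversed with -ps pseudogenes and with copies, at equal values for both. Within protein-coding genes and when centred, Rpl7 (0.56 and 0.31), Rps10 (0.52 and 0.27) and Rps29 (0.46 and 0.21) reversed. On counts, Rpl7 (0.039 with edgeR and 0.041 with DESeq2) and Rps29 (1.63 with both) reversed.

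Between the libraries, the median log2 TPM difference was -0.05. It was -0.066 in the second quantification and, on counts, -0.11 with TMM, -0.087 with total counts and -0.11 with DESeq2 size factors. It reversed to 0.19 with ERCC scaling, under which 1 member was lower and 73 were higher in replicate 1, beside a background of 1.72% lower and 50.8% higher.

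The share of TPM held by members was 2.04%. It was 3.52% in the second quantification, 4.36% of nuclear protein-coding TPM, 0.874% of counts, 2.34% with -ps pseudogenes, 2.73% with copies, and 2.01% to 2.08% in single libraries. The spread among core genes was 0.97, and 0.67 in the second quantification, 0.87 with -ps pseudogenes, 0.48 with copies and 0.56 in the second quantification with copies. The share on transcripts not protein_coding was 17.5%, 31.7% in the second quantification and 15.6% of counts. The summing of copies and the CPM values were added after seeing the data. With 2 libraries, no estimate of spread for a single gene is firm, and reads shared by a gene and an identical copy cannot be resolved at any depth.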
